A study of Mus musculus with 42 samples.

Results

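The 6 fibroblast growth factor (FGF) ligand genes Fgf3, Fgf4, Fgf5, Fgf8, Fgf15 and Fgf17 were examined in ChIP-seq peak lists for SOX2, β-catenin and LEF1. The lists came from mouse embryonic stem cells differentiated to epiblast-like or caudal epiblast-like cells. The 6 genes were taken from 21938 protein-coding genes. A peak was assigned to a gene when it overlapped the gene body extended by 10 kb on each side (mm10, GENCODE M21 annotation). Of 9218878 peaks in the 30 lists, 1264 fell in these windows, and of the 600000 peaks left when each list was limited to its 20000 best, 240 did.

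FGF ligands are secreted proteins that bind receptor tyrosine kinases and signal through the RAS–MAPK cascade. Fgf5 is a classical marker of the formative and primed epiblast. Fgf8 and Fgf4 are made in the primitive streak and are needed for cells to move through it, and Fgf3, Fgf8 and Fgf17 are also made in the tailbud, where FGF signalling keeps axial progenitors undifferentiated. Fgf15, the mouse counterpart of human FGF19, is best known as a gut hormone that restrains bile acid synthesis and is also made in the embryonic nervous system. In WNT signalling, β-catenin is carried to DNA by the TCF and LEF proteins, of which LEF1 is 1, and SOX2 is an HMG-box factor of pluripotent and neural cells.

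All cells were derived from HM1 embryonic stem cells (129 strain) and collected after 72 h. Every culture contained 10 ng/ml bFGF, itself an FGF ligand, and 5 µM LGK974, which blocks WNT secretion. The CHIR groups also received CHIR99021, a GSK3 inhibitor that activates WNT signalling, from day 2 to day 3, and the noCHIR group did not. Cells were wild type (WT), lacked Cdx1, Cdx2 and Cdx4 (Cdx1/2/4-/-, CdxKO), or lacked the T-box factor T/Bra (T/Bra-/-, T/BraKO). The study calls WT cells with CHIR caudal epiblast-like cells (CEpiLCs) and those without it epiblast-like cells (EpiLCs). SOX2 was measured in WT CHIR, WT noCHIR, CdxKO CHIR and T/BraKO CHIR cells, and β-catenin and LEF1 in the 3 genotypes with CHIR, with 3 biological replicates in each of the 10 groups. The number of clones behind each mutant line is not given in the sources used here, so line and genotype cannot be told apart. No expression was measured in these libraries, so the cell type could not be checked on markers.

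The lists held 26940 to 1008922 peaks, and the read depth behind them is unknown. Each peak was therefore ranked within its own list by −log10 q, with rank 1 the strongest, and the best rank in a gene window was compared between libraries on a log10 scale. The longest list was that of SOX2 WT CHIR replicate 1 and the shortest that of SOX2 T/BraKO replicate 3. Peaks from bulk cells cannot tell fewer bound cells from weaker binding in each cell. A window without any peak was given the list length plus 1, which in a short list can score better than a weak peak in a long one.

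Sites of 4 of the ligands were called repeatedly. Merging the 20000 best peaks of all 30 libraries gave 336178 regions, of which 69 overlapped the FGF windows. Of these, 47 (68.1%) were called in 1 library, compared with 83.7% of all regions. Another 4 were called in at least 15 libraries, as were 1.28% of all regions. These 4 lay in an intron of Fgf5 and downstream of Fgf8, Fgf15 and Fgf17.

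**Figure D1:**
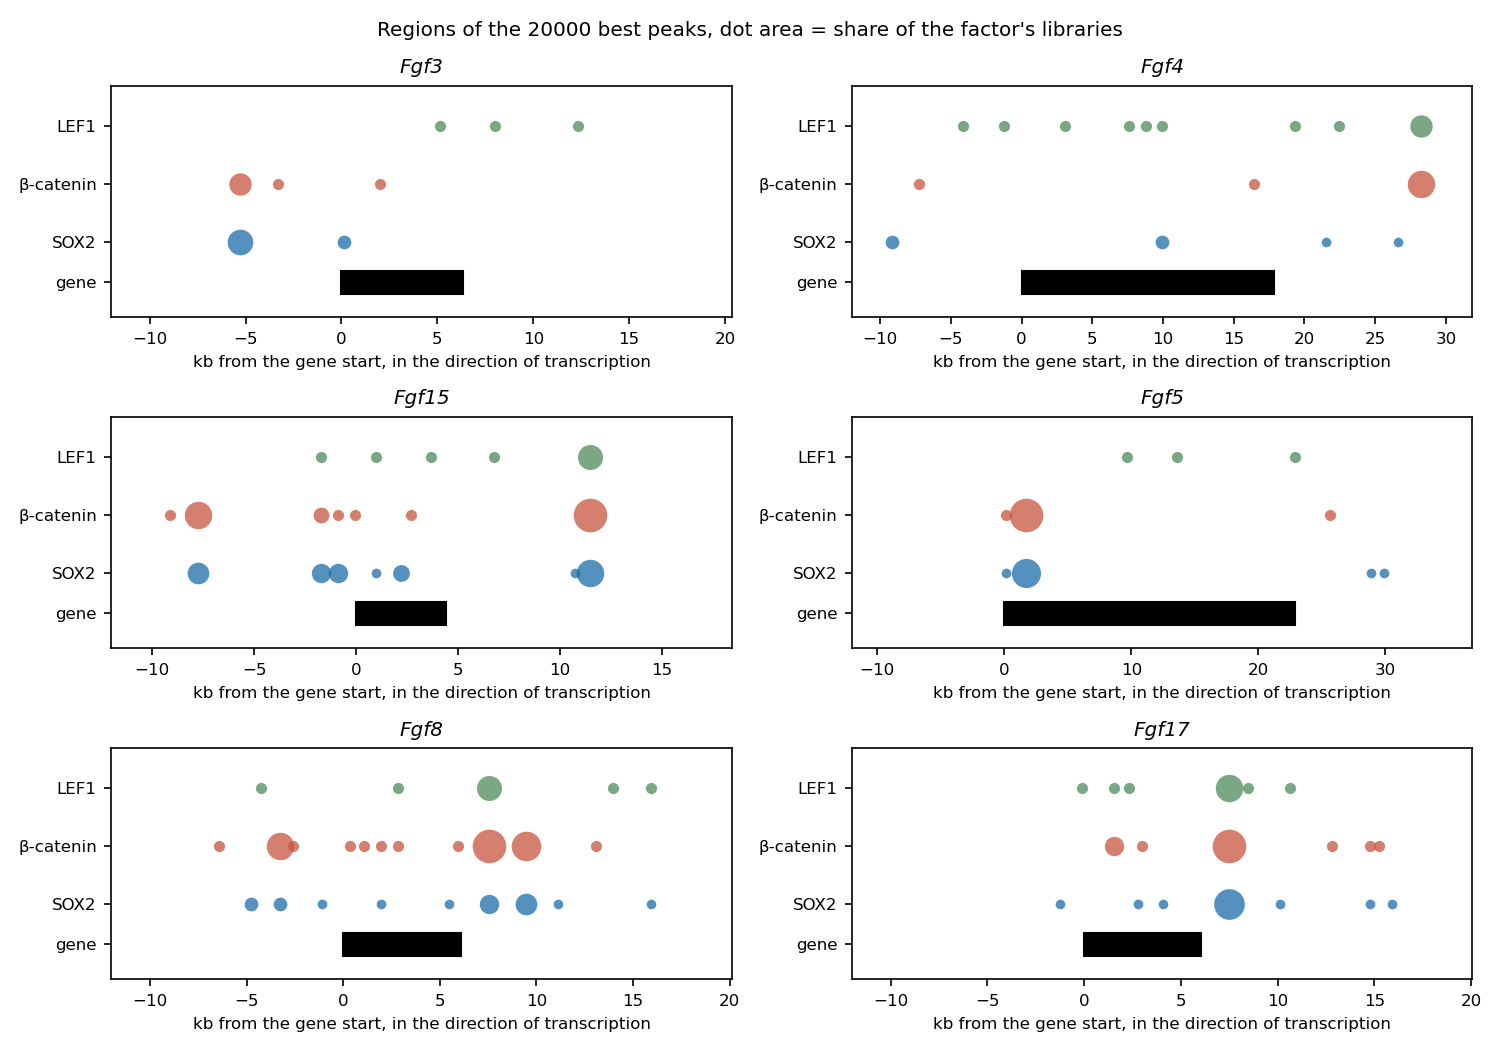
Regions of the 20000 best peaks in each window, placed by the distance of the strongest summit from the gene start (kb), with a row per factor. Dot area gives the share of the factor's libraries (of 12 SOX2, 9 β-catenin and 9 LEF1 libraries) with the region, and black bars are gene bodies. The largest dots lie at 1.72 kb in Fgf5, 7.55 and 9.46 kb in Fgf8, 7.49 kb in Fgf17 and 11.5 kb in Fgf15.

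The Fgf5 site (chr5:98255659-98256353) was intronic and its strongest summit lay 1.72 kb after the gene start. It was called in 18 libraries: 9 of 9 for β-catenin, 9 of 12 for SOX2 and 0 of 9 for LEF1. The median summits of SOX2 and β-catenin there were 1 bp apart.

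Fgf8, on the reverse strand of chromosome 19, had a pair of intergenic sites beyond its 3′ end. The proximal downstream site (chr19:45734355-45735825) had its strongest summit 7.55 kb from the gene start and was called in 18 libraries, in 9 of 9 for β-catenin, 5 of 9 for LEF1 and 4 of 12 for SOX2. The distal downstream site (chr19:45733065-45734120), at 9.46 kb, was called in 12 libraries, in 7 of 9 for β-catenin, 5 of 12 for SOX2 and 0 of 9 for LEF1. Another intergenic site 3.27 kb upstream (chr19:45745872-45746485) was called in 8 libraries, of which 6 were β-catenin. The Fgf8 window also held Npm3, a histone chaperone gene, part of Mgea5, the gene of O-GlcNAcase, and the antisense transcript Gm15491.

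In the Fgf17 window the most frequently called region (chr14:70634286-70636209) was found in 25 libraries, with 10 of 12 for SOX2, 9 of 9 for β-catenin and 6 of 9 for LEF1. It was 1924 bp wide and held more than 1 summit. The main summit, in 22 libraries, lay 7.5 kb after the Fgf17 start in an intron of the neighbouring gene Dmtn, which encodes an actin-bundling protein. Another, in 16 libraries, lay at 6.53 kb, close to a Dmtn start. Peaks here cannot be assigned to Fgf17 rather than Dmtn from position alone. Part of Npm2, an oocyte histone chaperone gene, also lay in this window.

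The Fgf15 downstream site (chr7:144907625-144908512) lay 11.5 kb after the gene start, in an intron of the antisense transcript Gm39119. It was called in 22 libraries, with 9 of 9 for β-catenin, 8 of 12 for SOX2 and 5 of 9 for LEF1, and the factor medians of its summits lay within 17 bp of each other. LEF1 WT replicate 1 held its best rank, 93. The other Fgf15 sites were called in fewer libraries: 11 at 7.77 kb upstream, 7 in a region with its strongest summit 1.74 kb upstream, and 5 at 0.889 kb upstream. Of those 7, 4 had an intergenic summit further upstream and 3 a summit in an exon of the antisense transcript Gm26793, where the site at 0.889 kb also lay.

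Fgf3 and Fgf4 lie next to each other and their windows overlap, so that 5 regions counted for both. The most frequent Fgf3 site (chr7:144832501-144833053) was intergenic, 5.3 kb upstream of the gene start, and was called in 11 libraries, with 7 of 12 for SOX2 and 4 of 9 for β-catenin. The most frequent Fgf4 site (chr7:144874743-144875947) lay 14.2 kb after the start of the main transcript, Fgf4-201, and was called in 10 libraries, with 6 of 9 for β-catenin, 4 of 9 for LEF1 and 0 of 12 for SOX2. The Fgf4 window ended at position 144875243, inside this site. β-catenin peaks of WT cells ranked 18630, 17939 and 2942 there, and the last of these, in replicate 3, lay outside the window and does not enter the best rank of Fgf4. The most frequent SOX2 site in the Fgf4 window lay 4.09 kb upstream of that start (chr7:144857008-144857403) and was called in 2 of 12 SOX2 libraries, both WT noCHIR.

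Sequences are shown for some of the sites that carried most calls, or that were called in all libraries of 1 group and in none of another. They run from 100 bp before to 100 bp after the strongest summit (RefSeq GRCm38.p6, forward strand, 5′ to 3′). Sites not printed include the most frequent Fgf4 site and a region called in CdxKO in the Fgf17 window (chr14:70635593-70635923). Capitals mark matches on either strand to the letters of 5 motifs. These were CATTGT or CTTTGT for SOX, CTTTGAA or CTTTGAT for TCF/LEF, AGGTGTGA for T-box factors and ATGCNAAT for POU factors. For CDX they were CAATAAA and the same letters with CC, TA or TC as the opening pair. The SOX and TCF/LEF letters share a start but cannot match the same place.
Fgf5 intron site, chr5:98255806-98256006: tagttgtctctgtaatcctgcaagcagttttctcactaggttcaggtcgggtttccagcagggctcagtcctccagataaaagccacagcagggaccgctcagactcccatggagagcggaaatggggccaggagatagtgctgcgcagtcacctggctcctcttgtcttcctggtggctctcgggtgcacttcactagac
Fgf8 proximal downstream site, chr19:45735269-45735469: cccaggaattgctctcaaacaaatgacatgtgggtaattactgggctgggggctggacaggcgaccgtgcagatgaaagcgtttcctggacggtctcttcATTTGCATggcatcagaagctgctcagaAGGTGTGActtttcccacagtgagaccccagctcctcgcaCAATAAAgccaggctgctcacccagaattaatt
Fgf8 distal downstream site, chr19:45733352-45733552: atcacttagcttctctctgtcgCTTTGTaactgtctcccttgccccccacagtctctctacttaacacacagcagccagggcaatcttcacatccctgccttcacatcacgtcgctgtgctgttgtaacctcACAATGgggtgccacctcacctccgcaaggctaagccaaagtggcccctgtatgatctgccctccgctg
Fgf17 downstream site, chr14:70634674-70634874: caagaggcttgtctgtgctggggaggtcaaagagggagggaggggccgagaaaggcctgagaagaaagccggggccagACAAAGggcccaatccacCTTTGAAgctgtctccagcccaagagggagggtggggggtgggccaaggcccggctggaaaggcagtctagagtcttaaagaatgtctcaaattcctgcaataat
Fgf15 downstream site, chr7:144907915-144908115: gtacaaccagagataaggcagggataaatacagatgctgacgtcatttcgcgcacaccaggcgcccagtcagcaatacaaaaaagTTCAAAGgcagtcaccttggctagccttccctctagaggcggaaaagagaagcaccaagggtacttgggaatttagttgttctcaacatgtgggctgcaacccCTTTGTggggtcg
Fgf15 upstream site, chr7:144895542-144895742: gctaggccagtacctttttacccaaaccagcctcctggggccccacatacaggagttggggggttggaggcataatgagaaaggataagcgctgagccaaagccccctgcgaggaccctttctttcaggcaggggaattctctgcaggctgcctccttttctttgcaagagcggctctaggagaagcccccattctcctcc
Fgf15 intron site, chr7:144898640-144898840: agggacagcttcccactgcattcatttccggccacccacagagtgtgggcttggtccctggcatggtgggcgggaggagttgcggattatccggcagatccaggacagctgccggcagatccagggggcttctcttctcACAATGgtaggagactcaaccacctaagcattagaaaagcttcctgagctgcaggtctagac
Fgf3 upstream site, chr7:144832681-144832881: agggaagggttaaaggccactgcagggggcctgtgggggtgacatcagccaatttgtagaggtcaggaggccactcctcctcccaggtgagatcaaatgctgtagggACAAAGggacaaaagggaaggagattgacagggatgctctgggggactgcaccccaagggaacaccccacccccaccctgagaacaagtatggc

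Among all 336178 regions, 31.6% held the SOX letters, 13.2% the TCF/LEF letters, 14.5% the CDX letters, 1.05% the T-box letters and 3.68% the POU letters within 100 bp of the strongest summit. In the FGF windows these were found in 19, 7, 6, 2 and 2 of 69 regions. The Fgf17 downstream site held SOX letters on the reverse strand 22 bp before the summit and TCF/LEF letters that began 4 bp before it. At the Fgf15 downstream site TCF/LEF letters began 15 bp before the summit. The Fgf8 proximal downstream site held POU letters at the summit, T-box letters 28 bp after it and CDX letters 68 bp after it, and no TCF/LEF or SOX letters in this window. The Fgf5 intron site and the Fgf15 upstream site held none of the letters searched. Of the sites not printed, the most frequent Fgf4 site and the Fgf15 region 1.74 kb upstream held none either. A match in letters is a description and does not show binding.

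**Figure D2:**
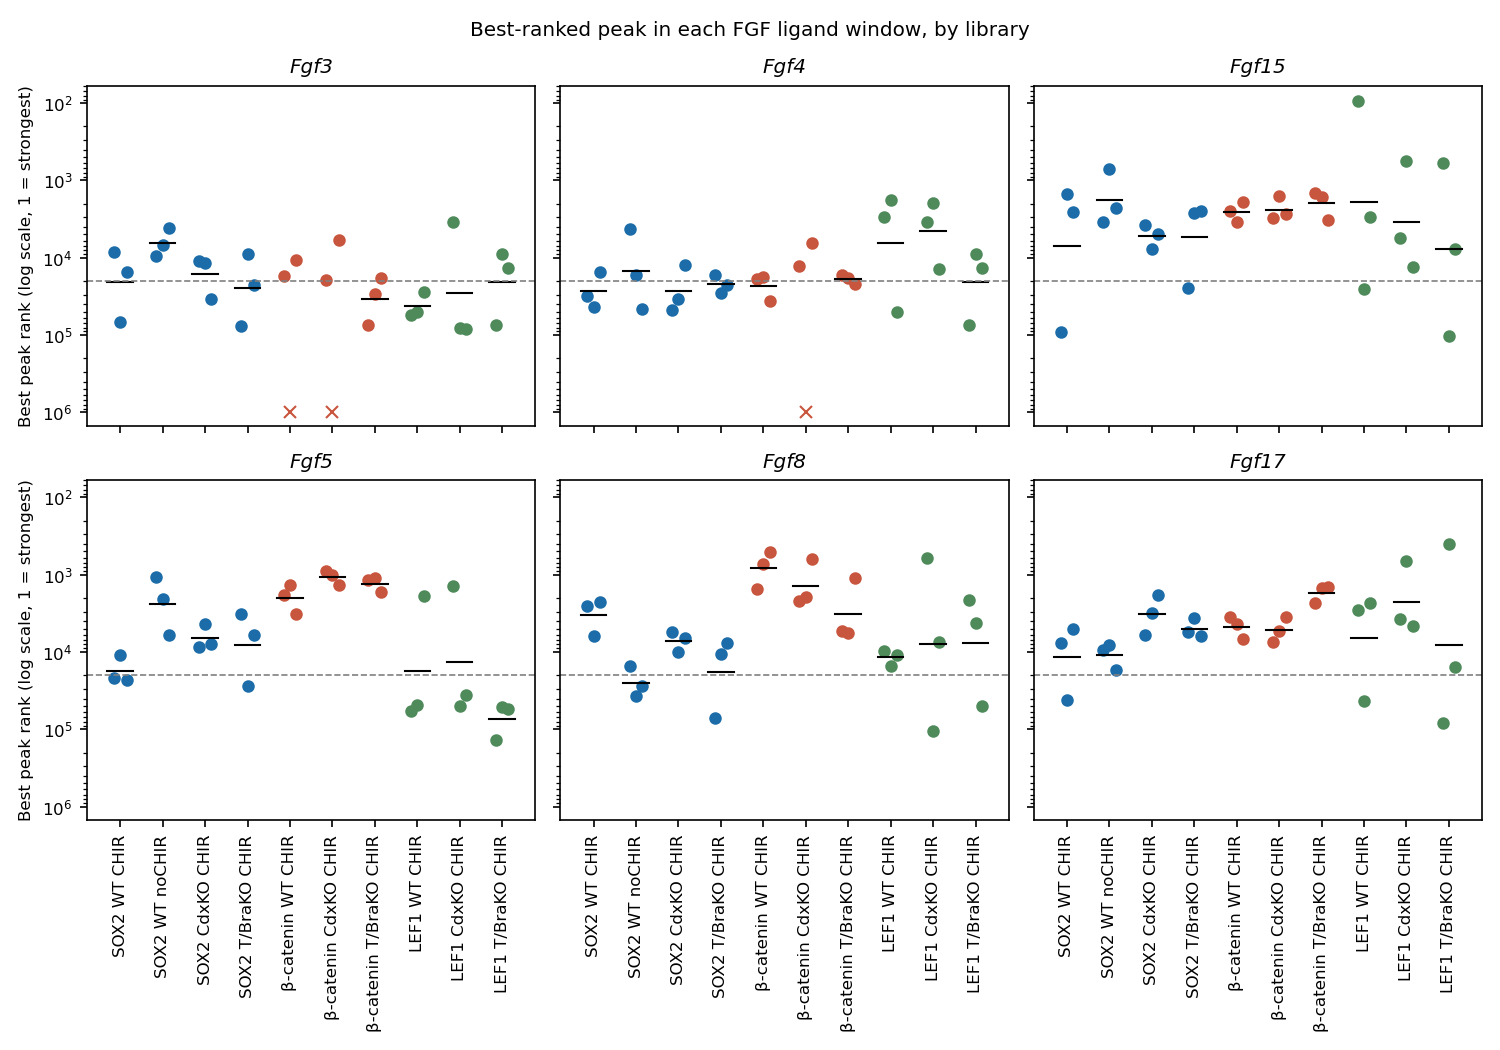
Best peak rank in the window of each gene (vertical log axis, strongest at the top) for the 3 libraries of each group. Points are libraries, black lines geometric means where all 3 libraries had a peak, crosses libraries without a peak in the window, and the dashed line rank 20000. Fgf5 and Fgf8 change places between the SOX2 WT CHIR and WT noCHIR groups, while all 9 β-catenin libraries stay above the dashed line for both.

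The first question was how SOX2 binding differed between WT cells with and without CHIR. Fgf5 and Fgf8 differed in opposite directions. At Fgf8 the best SOX2 peak was better ranked with CHIR, and at Fgf5 without it. For the other 4 ligands the groups overlapped.

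In the Fgf8 window the best SOX2 ranks were 2541, 6287 and 2248 in the CHIR libraries and 15155, 36829 and 27720 in the noCHIR libraries. All 3 CHIR libraries were better ranked than all 3 noCHIR libraries. The mean log10 rank was 3.52 ± 0.244 (SD, n = 3) with CHIR and 4.4 ± 0.197 (SD, n = 3) without, a 7.55-fold difference in rank (exact permutation test, two-sided, p = 0.1, adjusted p = 0.51 over all windows). With 3 libraries against 3, 0.1 is the smallest p that this test can give. The same non-overlap in favour of CHIR held for 8.24% of all windows. The value fell to 0.336 on the log10 scale, with overlapping groups, when the window was extended by 50 kb.

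At the Fgf8 proximal downstream site, SOX2 peaks of CHIR libraries had fold enrichments of 14.2, 6.75 and 12.8, and 2 of the 3 were among the 20000 best. Without CHIR, 2 libraries had no peak there and the other had a fold enrichment of 4.74. At the distal downstream site, fold enrichments were 6.31, 6.91 and 10 with CHIR, and 5.28 and 5.8 in the 2 noCHIR libraries with a peak. In WT CHIR replicate 2 the best peak of the window lay elsewhere, in an Fgf8 intron.

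In the Fgf5 window the best SOX2 ranks were 1086, 2091 and 6051 without CHIR and 21660, 10932 and 23107 with CHIR. No CHIR library reached the rank of any noCHIR library. The mean log10 rank was 3.38 ± 0.376 (SD, n = 3) without CHIR and 4.25 ± 0.18 (SD, n = 3) with it, a 7.36-fold difference in rank (exact permutation test, p = 0.1, adjusted p = 0.51). The non-overlap in favour of noCHIR held for 11.4% of all windows. When peaks were ranked by fold enrichment the groups overlapped, with a difference of -0.73 on the log10 scale, where negative means better ranked without CHIR.

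All 3 noCHIR peaks were at the Fgf5 intron site, with fold enrichments of 27.5, 20.4 and 7.64. At that site the CHIR libraries had fold enrichments of 4.33, 7.44 and 5.53, below every noCHIR value. WT CHIR replicate 1, the library with 1008922 peaks, ranked this peak only at 653258. Over all 6 omissions of 1 library, that one included, the difference in the best rank ranged from -1.07 to -0.695. Groups that do not overlap cannot overlap after an omission, so only the size was open to change.

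Fgf15 held the only regions in the FGF windows that SOX2 libraries of 1 WT condition all had and the other all lacked among the 20000 best. Both were called in 3 of 3 noCHIR and 0 of 3 CHIR libraries. At the Fgf15 upstream site (chr7:144895313-144895878, 0.889 kb before the start), noCHIR fold enrichments were 11.1, 26.8 and 13.5, and 2 CHIR libraries had weaker peaks of 2.65 and 5.14. Of the mutant SOX2 libraries with CHIR, CdxKO replicate 1 was also called there, at 10.9, and the others had no peak. β-catenin was called there in T/BraKO replicate 2, at 6.17. At the Fgf15 intron site (chr7:144898422-144899018, 2.21 kb after the start), noCHIR fold enrichments were 14.5, 14 and 17.5, and the 1 CHIR library with a peak had 4.62. Of all SOX2 regions, 2.41% were called in 3 of 3 noCHIR and 0 of 3 CHIR libraries, and 0.0905% the other way. Such an imbalance was not particular to this comparison. Regions called in WT CHIR alone were also the rarer kind against CdxKO (0.0391%, and 0.634% the other way) and T/BraKO (0.0302% and 0.485%). Of the 35 SOX2 regions in the FGF windows, 2 were called in 3 of 3 noCHIR and 0 of 3 CHIR libraries, and 0 the other way. In the full lists no region in the FGF windows was called in all libraries of 1 condition alone. The best rank of Fgf15 did not separate the conditions, at 92106, 1491 and 2558 with CHIR and 3405, 721 and 2304 without.

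For Fgf3 the best SOX2 ranks were 9594, 6776 and 4161 without CHIR, all at the upstream site, and 8521, 68370 and 15073 with CHIR. The groups overlapped through CHIR replicate 1. They did not overlap without that library (-0.696 on the log10 scale), without noCHIR replicate 1 (-0.589), or as percentiles among all windows of a library, at a difference of -27.1 points, where negative means better without CHIR. With 5 kb or 50 kb flanks the sign turned, to 0.117 and 0.131. The best ranks of Fgf4 were 30976, 43695 and 15073 with CHIR and 4302, 16603 and 46287 without. Those of Fgf17 were 7693, 41701 and 4972 with CHIR and 9501, 8190 and 17048 without. Neither gene separated the conditions.

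**Figure D3:**
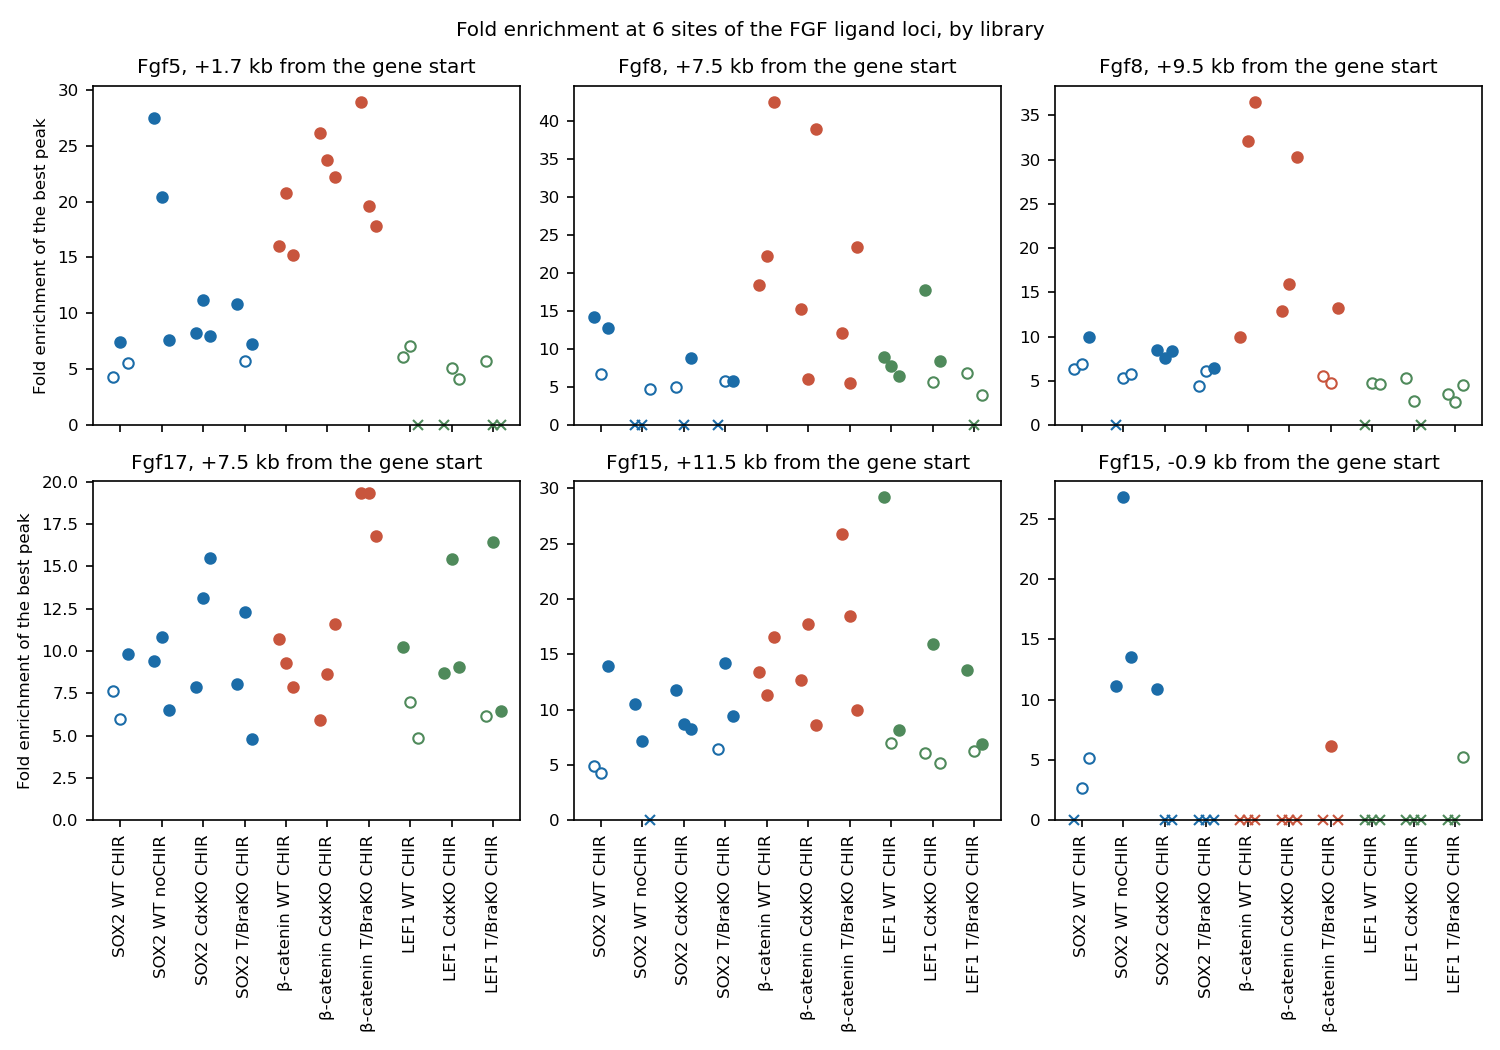
Fold enrichment over background (linear axis from 0) of the best peak of each library at 6 sites, named by gene and distance from the gene start. Filled points are among the 20000 best peaks of their list, open points are below, and crosses are libraries without a peak at the site. SOX2 noCHIR libraries reach 27.5 at the Fgf5 intron site and 26.8 at the Fgf15 upstream site, and have 1 weak peak between them at the Fgf8 proximal downstream site.

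A described SOX2 target in pluripotent cells is the Fgf4 enhancer in the 3′ untranslated region, where SOX2 and the POU factor OCT4 bind side by side. SOX letters followed within 6 bases by POU letters were found in the 3′ untranslated region of Fgf4 at chr7:144864394-144864411, printed with the bases between them.
Fgf4 SOX–POU pair: CTTTGTTTGGATGCTAAT
None of the 30 libraries had 1 of its 20000 best peaks over this pair. In the full lists, 3 of 12 SOX2 libraries had a peak there, at rank 70307 in WT CHIR replicate 3, 46287 in WT noCHIR replicate 3 and 47215 in CdxKO replicate 3. No β-catenin or LEF1 library had one.

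The second question was how loss of the CDX factors or of T/Bra changed binding with CHIR. For SOX2, Fgf5 was better ranked in CdxKO than in WT cells and Fgf8 worse ranked in T/BraKO than in WT cells. The remaining 10 tests of SOX2 had overlapping groups.

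At Fgf5 the CdxKO ranks of SOX2 were 8531, 4292 and 7848, each better than the WT ranks of 21660, 10932 and 23107. All 3 CdxKO peaks were at the Fgf5 intron site, with fold enrichments of 8.27, 11.2 and 7.96. The mean log10 rank was 3.82 ± 0.163 (SD, n = 3) in CdxKO, 2.67-fold better than in WT (exact permutation test, p = 0.1, adjusted p = 0.718). This non-overlap was seen in 8.98% of all windows, and the opposite in 4.95%. In T/BraKO the ranks of 3228, 27229 and 6077 overlapped those of WT. Without T/BraKO replicate 2, at 27229, the T/BraKO and WT groups did not overlap, at a difference of -0.6 on the log10 scale. By geometric mean the best SOX2 peaks at Fgf5 were strongest in noCHIR (2395) and weakest in WT CHIR (17621), with CdxKO (6599) and T/BraKO (8114) between them. CdxKO and T/BraKO overlapped, T/BraKO replicate 1 ranked better than all 3 CdxKO libraries and replicate 3 better than 2 of them, and their order by the mean rested on T/BraKO replicate 2. All these comparisons used the same WT CHIR libraries.

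The T/BraKO ranks of SOX2 at Fgf8 were 72496, 10528 and 7701, all worse than the WT ranks of 2541, 6287 and 2248. The mean log10 rank was 4.26 ± 0.527 (SD, n = 3), a 5.47-fold worse rank than in WT (exact permutation test, p = 0.1, adjusted p = 0.885). Of all windows, 2.89% had WT better ranked and 8.04% T/BraKO. A window without a peak in T/BraKO replicate 3, the shortest list, scored 26941, better than weak WT peaks of longer lists. This can raise the share for T/BraKO and lower that for WT and the 0.938% below, by an amount that was not tested. Against the 6 WT and CdxKO libraries together the difference was 3.71-fold (exact permutation test over 84 assignments, p = 0.0238, adjusted p = 1), and 0.938% of all windows were worse ranked in T/BraKO at an unadjusted p under 0.05. Replicate 1 lay far from the other 2, and without it the difference from WT fell from 0.738 to 0.436 on the log10 scale. Under ranking by fold enrichment the groups of 3 overlapped, at a difference of 0.695 on the log10 scale, and the test against 6 libraries gave an unadjusted p of at least 0.05, as it did with peaks below the 20000 best counted as absent. CdxKO ranks at Fgf8, 5542, 9926 and 6695, were all between the WT and noCHIR extremes and overlapped WT in 1 library.

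Among SOX2 regions, 1 in the Fgf17 window (chr14:70635593-70635923) was called in 3 of 3 CdxKO and 0 of 3 WT libraries. Its summit lay in Dmtn, 0.234 kb after the nearest Dmtn start, and the call did not hold among the 5000 best peaks or in the full lists. SOX2 summits at this place were also found in 2 of 3 T/BraKO libraries and in 0 of 3 WT noCHIR libraries. Regions called in 3 of 3 CdxKO and 0 of 3 WT CHIR libraries made up 0.634% of all SOX2 regions, and those called in WT alone 0.0391%. Between WT and T/BraKO there were none in the FGF windows, where 0.0302% of all regions were called in WT alone and 0.485% in T/BraKO alone.

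The sites of Fgf5 and Fgf15 were called for β-catenin in every library of the 3 genotypes. At the Fgf5 intron site all 9 libraries ranked it between 884 and 3194, with fold enrichments from 15.2 to 28.9. The mean log10 rank was 3.3 ± 0.189 in WT, 3.03 ± 0.0959 in CdxKO and 3.12 ± 0.0968 in T/BraKO (SD, n = 3 each), and the groups overlapped. At the Fgf15 downstream site all 9 libraries had a peak, with fold enrichments from 8.65 to 25.9.

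The Fgf8 window held the best β-catenin ranks of the 6 ligands in WT cells, at 1538, 723 and 509. CdxKO libraries ranked 2192, 1936 and 626, and T/BraKO libraries 5347, 5607 and 1110. In 2 of the 3 T/BraKO libraries the rank was worse than and in the other it overlapped both (3.89-fold against WT, exact permutation test, p = 0.2, adjusted p = 0.935). At the distal downstream site the fold enrichments were 9.94, 32.1 and 36.5 in WT, 12.9, 15.9 and 30.3 in CdxKO and 5.54, 4.8 and 13.2 in T/BraKO. It was among the 20000 best in 6 of 6 WT and CdxKO libraries and in 1 of 3 T/BraKO libraries. At the proximal downstream site all 9 libraries had it among the 20000 best.

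Fgf17 was the only ligand whose β-catenin ranks separated 2 genotypes. The ranks were 3553, 4374 and 6792 in WT, 7430, 5336 and 3564 in CdxKO and 2320, 1504 and 1462 in T/BraKO. All T/BraKO libraries were better ranked than all others. The mean log10 rank was 3.24 ± 0.112 (SD, n = 3) in T/BraKO and 3.67 ± 0.144 (SD, n = 3) in WT, a 2.75-fold difference (exact permutation test, p = 0.1, adjusted p = 0.935). Against WT and CdxKO together it was 2.88-fold (exact permutation test, p = 0.0119, the smallest possible with 3 libraries against 6, adjusted p = 0.5), and 3.03% of all windows were better ranked in T/BraKO at an unadjusted p under 0.05. Fold enrichments in the region were 10.7, 9.29 and 7.85 in WT, 5.93, 8.62 and 11.6 in CdxKO and 19.3, 19.3 and 16.8 in T/BraKO.

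For β-catenin the share of all windows without overlap was 5.03% with WT better ranked than T/BraKO and 5.57% with T/BraKO better ranked. It was 5.72% with WT better ranked than CdxKO and 3.65% the other way, and 0 of the 6 ligands were among them. No β-catenin region in the FGF windows was called in 3 of 3 libraries of 1 genotype and 0 of 3 of the other. Of all β-catenin regions, 0.392% were so called in WT against CdxKO, 0.25% in CdxKO, 0.436% in WT against T/BraKO and 0.585% in T/BraKO.

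The best LEF1 ranks of WT and mutant libraries overlapped for 6 of 6 ligands in both comparisons, and replicates of 1 group lay far apart. At Fgf15 they were 93, 25513 and 2948 in WT, 5516, 555 and 13128 in CdxKO and 589, 104447 and 7731 in T/BraKO. At Fgf17 they were 2889, 43294 and 2295 in WT, 3758, 668 and 4643 in CdxKO and 83296, 400 and 15723 in T/BraKO. At Fgf5 they were 58522, 48474 and 1879 in WT, 1388, 49859 and 35834 in CdxKO and 139523, 51098 and 55196 in T/BraKO. Over all windows, 5.22% had WT better ranked than CdxKO without overlap and 4.75% CdxKO, while 5.21% had WT better ranked than T/BraKO and 4.51% T/BraKO.

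The Fgf8 proximal downstream site was the exception in its calls. LEF1 peaks there were among the 20000 best in 3 of 3 WT libraries, with fold enrichments of 8.96, 7.82 and 6.46, in 2 of 3 CdxKO libraries and in 0 of 3 T/BraKO libraries. T/BraKO libraries had a fold enrichment of 6.8 at rank 82670, no peak, and 4.02 at rank 163121. Of all LEF1 regions, 0.0651% were called in all 3 WT and no T/BraKO libraries, 0.0178% the other way, 0.0233% in WT and not CdxKO and 0.0664% in CdxKO and not WT. Of the 29 in the FGF windows, 1, 0, 0 and 0 were. The call did not hold among the 5000 best peaks, in the full lists, or when a peak had to cover at least 0.5 of the region. The best LEF1 rank of the whole Fgf8 window did not follow this site, at 9658, 15249 and 10787 in WT and 2135, 4260 and 49490 in T/BraKO, where the best peaks lay elsewhere.

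Across the 42 tests of a ligand in a comparison, 5 had groups that did not overlap and 37 did overlap. Over all windows, the share without overlap ranged from 2.89% to 11.4% in each of the 2 directions of a comparison. The count of 5 is therefore not read as a result about the ligands. The lowest adjusted p was 0.51. The median difference of the 6 ligands between SOX2 in CHIR and noCHIR cells was -0.384 on the log10 scale, beside 0.0127 over all windows. For SOX2 in WT against CdxKO and T/BraKO it was -0.115 and -0.102, beside -0.0258 and -0.0768. For β-catenin it was 0.0182 and -0.0977, beside -0.0113 and -0.0265, and for LEF1 -0.162 and 0.3, beside 0.0122 and 0.0102. Positive values mean better ranks in WT or, in the first comparison, with CHIR. Of 36 tests of 1 mutant against both other genotypes, 2 had an unadjusted p under 0.05. Over all windows, the share at that p ranged from 0.938% to 3.47% in each of the 2 directions of such a test. The count of 2 is therefore not read as a result about the ligands. After adjustment over all windows none of the tests passed, in any window.

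**Figure D4:**
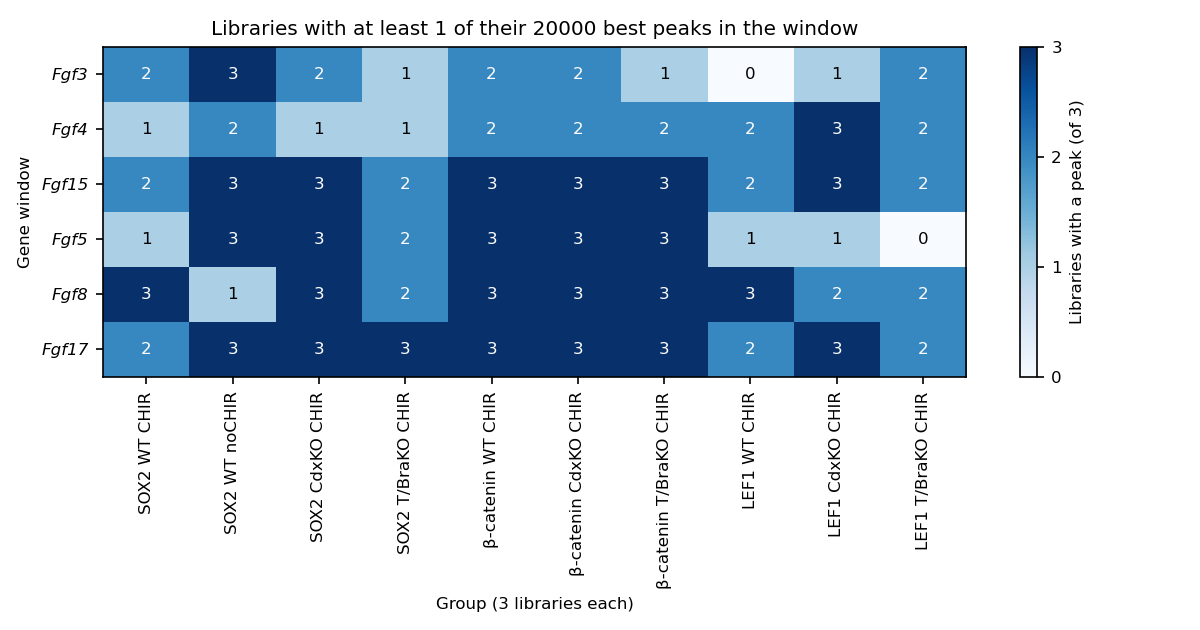
Number of libraries (0 to 3, printed in each cell) with at least 1 of their 20000 best peaks in the window of each gene, for the 10 groups. Fgf5, Fgf8, Fgf15 and Fgf17 have a peak in 3 of 3 libraries of every β-catenin group, and Fgf3 and Fgf4 in 1 or 2. The peak of β-catenin WT replicate 3 at the downstream Fgf4 site lies beyond the window edge and is not counted.

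A peak among the 20000 best in 3 of 3 libraries was found for Fgf5, Fgf8, Fgf15 and Fgf17 in each β-catenin group, 4 of 6 ligands. Fgf4 was not counted in WT because the replicate 3 peak at its downstream site fell beyond the window edge, although that site was called in 3 of 3 WT libraries. This held for 20.1% of all windows in WT, 19.4% in CdxKO and 21.3% in T/BraKO. For SOX2 it was found for Fgf8 alone in WT CHIR (18.1% of all windows), for Fgf3, Fgf5, Fgf15 and Fgf17 in WT noCHIR (25.3%), for Fgf5, Fgf8, Fgf15 and Fgf17 in CdxKO (24.4%) and for Fgf17 alone in T/BraKO (22.5%). For LEF1 it was found for Fgf8 in WT (13.6%), for Fgf4, Fgf15 and Fgf17 in CdxKO (14.1%) and for 0 of 6 in T/BraKO (13.6%). Windows of the ligands were 24.4 to 42.8 kb long and the median of all windows was 37.4 kb.

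The other list held 16 genes of the FGF family, not all of which encode secreted ligands. Of these 16, 5 to 9 had such a peak in 3 of 3 libraries in each β-catenin group, 6 or 7 in each SOX2 group and 3 or 4 in each LEF1 group. Fgf14, whose product acts inside neurons and is not secreted, was among them in all 10 groups. Window lengths were not compared for these other genes or the receptors, and a longer window can hold more peaks. Of the 7 receptors and co-receptors, Fgfr1 and Fgfr2 were among them in all 10 groups. Between SOX2 in WT CHIR and noCHIR cells, Fgf20 was better ranked with CHIR, and Fgf13 and Fgf23 without. Fgfr2, a receptor whose splice forms serve epithelium and mesenchyme, ranked 3, 30 and 12 with CHIR and 102, 248 and 75 without. Fgfr1, the main FGF receptor of the epiblast, ranked 6265, 11487 and 2789 with CHIR and 2531, 1986 and 2523 without, and Fgfrl1, a receptor without a kinase domain, was also better ranked without. Against CdxKO, SOX2 was better ranked in WT at Fgf20 and Fgfr2 and in CdxKO at Fgf23 and Fgfr1. Against T/BraKO it was better ranked in WT at Fgf20 and in T/BraKO at Fgfr4. Fgf23 ranked 3252 and 16985 in T/BraKO replicates 1 and 2 and 94515, 64267 and 120634 in WT. T/BraKO replicate 3 had no peak at Fgf23, and its value of 26941 is the list length plus 1. Fgf23 was thus not better ranked in every T/BraKO library. For β-catenin, Fgf18, a ligand of the same subfamily as Fgf8 and Fgf17, was better ranked in WT (1596, 1419 and 1944) than in CdxKO (3207, 5612 and 2578) or T/BraKO (4160, 3542 and 14330). Fgf20 and Fgfr3 were also better ranked in WT than in T/BraKO, and Fgfr2 in WT than in CdxKO. In the opposite direction, Fgf9, Fgf23, Fgfr1 and Fgfrl1 were better ranked in T/BraKO and Kl, a co-receptor, in CdxKO. The β-catenin ranks of Fgf9 were 22894, 6073 and 3470 in WT and 1756, 1756 and 1738 in T/BraKO, and those of Fgfr1 were 533, 506 and 363 in WT and 246, 212 and 218 in T/BraKO. For LEF1, Fgf2, Fgf7, Fgf11 and Fgf14 were better ranked in WT than in CdxKO, and Fgf7 and Fgfrl1 in WT than in T/BraKO. LEF1 was better ranked in either mutant at 0 of the 16 other FGF genes and 0 of the 7 receptors and co-receptors. Over all windows, LEF1 was better ranked without overlap in CdxKO for 4.75% and in T/BraKO for 4.51%. Across the comparisons of all 3 factors, such shares ranged from 2.89% to 11.4% in each direction. These names and counts are therefore not read as a result about the other FGF genes or the receptors.

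The genes whose percentiles over the 30 libraries were most like those of a ligand differed for each. Fgf5 was most like Klf13 (Spearman's rho = 0.863) and Abhd12b (0.826), Fgf8 most like Pura (0.843) and Wdr93 (0.838), and Fgf17 most like Slc44a5 (0.794) and Pik3cg (0.727). Values were lower for Fgf15 (Gm9125, 0.694, and Kcnk16, 0.662), Fgf3 (Rbm47, 0.672, and Tex19.1, 0.67) and Fgf4 (Spata20, 0.658, and Mfap3l, 0.637). The 30 points share factors and list lengths, and these pairs were the highest of all genes, so the values are descriptions.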

How the data were processed

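ChIP-seq peak lists of 30 immunoprecipitation libraries were used; the 12 inputs of the 42 samples were not analysed here. According to the study's methods, the authors aligned single-end reads to mm10 with BWA in the nf-core pipeline and called peaks with MACS at q under 0.05. The submitters' notes name MACS2, whose version is not given in the sources used here, nor is the input paired with each library. The lists were called per library, replicates not being pooled. The deposited columns give a score (not used), the fold enrichment over the local background (a linear ratio), −log10 p and −log10 q, and the summit offset, a position in bases. Read counts are not in these files, so depth is unknown and fold enrichments were not rescaled.

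Each list was ordered on its q-value column, with ties broken by the p-value, the fold enrichment and the position. Best ranks in all 21938 windows were compared by two-sided exact permutation tests of the mean log10 rank, with Benjamini-Hochberg adjustment over windows. Windows without a peak in any library compared were left out. A group difference was called when 3 libraries all ranked better than the other 3. Regions were peaks among the 20000 best that overlapped by at least 1 bp, and summits over 200 bp apart were counted separately. The spacing allowed in the Fgf4 SOX–POU pair, up to 6 bases, was widened after a narrower search found no match. Lists are of unequal length, and a longer one holds more weak peaks. The steps were tested on simulated data and run in Python 3.11.15 with NumPy 2.4.6 and SciPy 1.17.1.

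The members and lists were chosen with earlier results of these data known. The sites named are the most frequent of each window and factor and those called in 3 of 3 against 0 of 3 libraries. Genes overlapping a window and, per member, the 2 most alike genes are also named. Members of the 2 pathway lists are named as examples. Same-numbered libraries did not deviate together (21 correlations of deviations, -0.132 to 0.116), so replicate numbers were not used as pairs. p-values measure the spread between biological replicates as labelled.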

Additional observations from a re-analysis of the deposited data

How the results depend on the processing

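The 5 differences between groups that did not overlap had 14 alternatives each. Omitting 1 library or pairing by replicate number cannot make such groups overlap or turn their direction, so only the other settings could. Under those the direction was kept, and 3 left the groups overlapping, as given beside those results. Counts of non-overlapping ligands, and of peaks or regions in 3 of 3 libraries, likewise cannot fall when 1 library is left out. With the replicate block (paired differences by replicate number) these 5 therefore had to have 1 sign throughout. Their mean paired differences were -0.867 and -0.427 for Fgf5, 0.878 and 0.738 for Fgf8 and -0.439 for Fgf17 on the log10 scale. Of the 37 overlapping results, 10 also had paired differences of 1 sign. With 3 pairs the smallest p is 0.25. The 37 overlapping results became non-overlapping in 9 of their settings other than omissions and pairing, and 27 times when 1 library was left out.

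The number of ligands with non-overlapping SOX2 groups, 2 between CHIR and noCHIR, was 1 when ranked by fold, 1 with 50 kb flanks and 3 by percentile, where Fgf3 was added, and 2 to 3 without 1 library. Between WT and CdxKO it was 1, 3 with 50 kb flanks and 1 to 3 without 1 library. Between WT and T/BraKO it was 1, 0 by fold, 2 with 50 kb flanks and 1 to 3 without 1 library. For β-catenin it was 0 against CdxKO (1 with 50 kb flanks, 0 to 3 without 1 library) and 1 against T/BraKO (2 by fold, 2 within 10 kb of the gene start, 1 to 4 without 1 library). For LEF1 it was 0 against CdxKO (1 with 5 kb flanks and within 10 kb of the start) and 0 against T/BraKO, each 0 to 1 without 1 library. Of T/BraKO against both other genotypes, the 1 ligand of SOX2 was lost when peaks below the 20000 best were absent or ranked by fold (0), with 0 to 1 without 1 library, and the 1 of β-catenin became 2 by percentile, with 1 to 2 without 1 library. For CdxKO the count of 0 became at most 1 for β-catenin and for LEF1 without 1 library.

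The number of ligands with a peak in 3 of 3 libraries fell among the 5000 best to 0 for SOX2 in WT CHIR, CdxKO and T/BraKO and for LEF1 in WT, and to 1 for SOX2 noCHIR and LEF1 in CdxKO. In the full lists it was 6 for SOX2 in WT CHIR and T/BraKO and for all LEF1 groups. With 50 kb flanks it was 5 for SOX2 and LEF1 in WT CHIR, 6 for SOX2 in T/BraKO and LEF1 in CdxKO and 4 for LEF1 in T/BraKO. With 5 kb flanks it was 1 for LEF1 in CdxKO, and by fold 0 for LEF1 in WT. With 1 library left out it was 1 to 3 where 0 or 1, 3 to 4 where 3 and 4 to 6 where 4. Regions in 3 of 3 against 0 of 3 numbered 2 between SOX2 CHIR and noCHIR (0 in full lists, 1 when a peak had to cover 0.5 of the region, 2 to 4 without 1 library). They numbered 1 between WT and CdxKO (0 among the 5000 best and in full lists, 2 by that coverage, 1 to 3 without 1 library) and 0 between WT and T/BraKO (1 in full lists, 0 to 1 without 1 library). For LEF1 they numbered 0 in WT against CdxKO (1 among the 5000 best and in full lists, 0 to 1 without 1 library) and 1 against T/BraKO (0 among the 5000 best, in full lists and by that coverage, 1 without any 1 library), and for β-catenin 0, with 0 to 1 without 1 library. The cause of these changes was not tested. Peak lists without read counts limit all statements to ranks and calls.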
